A study of Mus musculus with 6 samples.

Results

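Ski, Skil, Tgif1 and Tgif2 encode nuclear proteins that hold back transcription by Smad2 and Smad3, and phospho-Smad2 ChIP tags were followed across these 4 genes of the 22350 protein-coding genes in the annotation. The genes were chosen by name, and each was taken with 20 kb on either side of its mm9 bounds. The windows together covered 280 kb and held 29 of the 12258 regions of the whole series, with 11 at Ski, 5 at Skil, 12 at Tgif1 and 1 at Tgif2. The region with the most tags in Activin and DMSO was an intronic Ski region, with 382 tags in the Activin ChIP library, 269 in DMSO and 51 in SB. The intronic Skil region nearest the start of that gene had 37, 48 and 15, and no Tgif1 or Tgif2 region held over 90 tags in Activin.

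The cells were E14 TG2A, an established mouse embryonic stem cell line. All cultures were first held for 6 h in 10 uM SB, which is SB-431542, an inhibitor of the receptor kinases that phosphorylate Smad2. They were then kept for 18 h in KSR media, which contains a replacement for serum and no Leukemia Inhibitory factor, with 25 ng/ml Activin as the high signal, with a 1 in 5000 dilution of DMSO as the vehicle, or again with 10 uM SB as the low signal. DMSO cultures received neither the ligand nor the inhibitor in these hours. Each treatment had 1 ChIP library, made with an antibody to Smad2 phosphorylated at its C-terminal serines, and 1 input library of chromatin that did not pass the antibody. Nothing was repeated, so every test below compares libraries and covers counting error only, and tags without molecular identifiers are not independent molecules. Total tags were 9757735 to 13148559 in the ChIP libraries and 10516699 to 12708225 in the input libraries. RNA was not measured in these libraries, so the labelled cell type was not checked against marker genes.

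Activated type I receptors phosphorylate Smad2 and Smad3, which join Smad4 in the nucleus and act on genes with partner factors such as FoxH1. Ski and SnoN, the protein of Skil, bind the Smad complex and bring in N-CoR and histone deacetylases. Both proteins are removed by ubiquitin ligases when the pathway is active, and Skil is known as a gene that the same pathway switches on, a form of negative feedback. TGIF1 and TGIF2 are homeodomain proteins of the TALE class that bind Smad2 and recruit histone deacetylases. TGIF1 also recruits CtBP and Sin3 proteins.

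A region is a place where at least 1 of the authors' 3 peak lists has a peak, with its extent rebuilt from the tags. Levels are given as RPM, the tags of a library scaled to a total of 1000000. A ratio is always that of RPM values, with its 95% Clopper-Pearson interval, which covers counting error only. A region was called when the two-sided exact binomial test gave an adjusted p under 0.05 and the ratio was at least 1.5-fold in either direction. Regions were found in the same libraries that are compared, which tilts them. Of the 2733 regions in the Activin list alone, 28.4% were called higher in Activin than in SB, and of the 4259 in the DMSO list alone, 42.8% were called lower in Activin than in DMSO. The list membership of each region is therefore given beside its values. The same test between input libraries called 0.00816% of regions for Activin against DMSO, 0.0326% for SB against DMSO and 0.212% for Activin against SB, and none of the 29.

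The sequences under the Ski and Skil regions and under the strongest Activin region beside Tgif1 are shown because the tag counts are centred on them. Each is 300 bases of mm9 around the highest pileup, read 5′ to 3′ in the direction of the gene. Capitals mark CAGAC or its complement GTCTG, a short Smad box, and AATNCACA or its reverse complement, the FoxH1 motif. The Ski window is chr4:154563935-154564234 on the minus strand, the Skil window chr3:30994565-30994864 on the plus strand and the Tgif1 window chr17:71177520-71177819 on the minus strand.
Ski: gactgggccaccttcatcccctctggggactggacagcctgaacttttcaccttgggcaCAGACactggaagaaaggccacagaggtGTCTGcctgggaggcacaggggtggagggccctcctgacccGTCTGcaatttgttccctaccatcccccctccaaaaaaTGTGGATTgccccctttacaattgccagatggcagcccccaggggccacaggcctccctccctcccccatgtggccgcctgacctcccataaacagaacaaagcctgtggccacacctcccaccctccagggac
Skil: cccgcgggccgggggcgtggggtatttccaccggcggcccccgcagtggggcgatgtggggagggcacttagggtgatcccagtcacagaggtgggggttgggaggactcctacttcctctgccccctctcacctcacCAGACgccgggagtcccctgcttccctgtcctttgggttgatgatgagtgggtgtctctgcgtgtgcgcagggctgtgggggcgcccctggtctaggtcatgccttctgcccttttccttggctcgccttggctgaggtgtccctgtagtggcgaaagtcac
Tgif1: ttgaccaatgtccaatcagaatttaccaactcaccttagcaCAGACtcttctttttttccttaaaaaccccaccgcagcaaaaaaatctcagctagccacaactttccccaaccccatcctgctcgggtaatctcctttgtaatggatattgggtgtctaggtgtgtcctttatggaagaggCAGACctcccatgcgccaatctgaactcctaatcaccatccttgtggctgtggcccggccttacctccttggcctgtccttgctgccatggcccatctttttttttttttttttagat

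The Ski window held 3 Smad boxes and 1 FoxH1 motif. The FoxH1 letters begin 17 bp downstream of the highest pileup, and the nearest Smad box begins 21 bp upstream of it. The Skil window held 1 Smad box, which begins 12 bp before the highest pileup, and 1 GGCGCC, a GC-rich Smad motif. The Tgif1 window held 2 Smad boxes. In windows of the same length at all 12258 regions, on both strands, 57.4% held a Smad box, 7.04% held 3 or more, 7.76% a FoxH1 motif and 5.77% GGCGCC, while 0.587% held 3 or more Smad boxes together with a FoxH1 motif. Among the other 26 windows at the 4 genes, FoxH1 letters were found at Ski 30.4 kb, Skil 28.6 kb and Tgif1 9.5 kb downstream of the start sites. The palindrome GTCTAGAC, found in 0.636% of all windows, was in none of the 29. TGACAG, the core that TGIF proteins bind, was in 21.1% of all windows and in none of the 3 printed ones. Among the other windows it was found downstream of the start sites at Ski 30.4 and 34.0 kb, Skil 8.9 kb and Tgif1 2.4, 8.7 and 23.8 kb. It was also found 19.4 kb upstream of Tgif1. A match of letters is a description and not a measured binding site.

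Ski (chr4:154528184-154596701, minus strand) carried its tall region at chr4:154563265-154564845, in the 60595 bp intron after the first exon of the transcript with the first start site, 32.6 kb downstream of the start site. The region was in all 3 peak lists, with 275 listed tags with Activin, 180 with DMSO and 39 with SB. It held 29.1 RPM with Activin, 20.9 with DMSO and 5.23 with SB. The inputs held 3.12, 3.15 and 2.76 RPM there. The ChIP levels thus fell in the order Activin, DMSO, SB, while the inputs differed by little. SB was 0.250 times DMSO (0.182 to 0.339, adjusted p of 1.93e-22 by the exact binomial test) and Activin 5.56 times SB (4.14 to 7.60, adjusted p of 7.6e-42 by the exact binomial test), and both were called. Activin was 1.39 times DMSO (1.19 to 1.63, adjusted p of 0.00138 by the exact binomial test), which passed the p threshold but not the 1.5-fold limit.

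**Figure D1:**
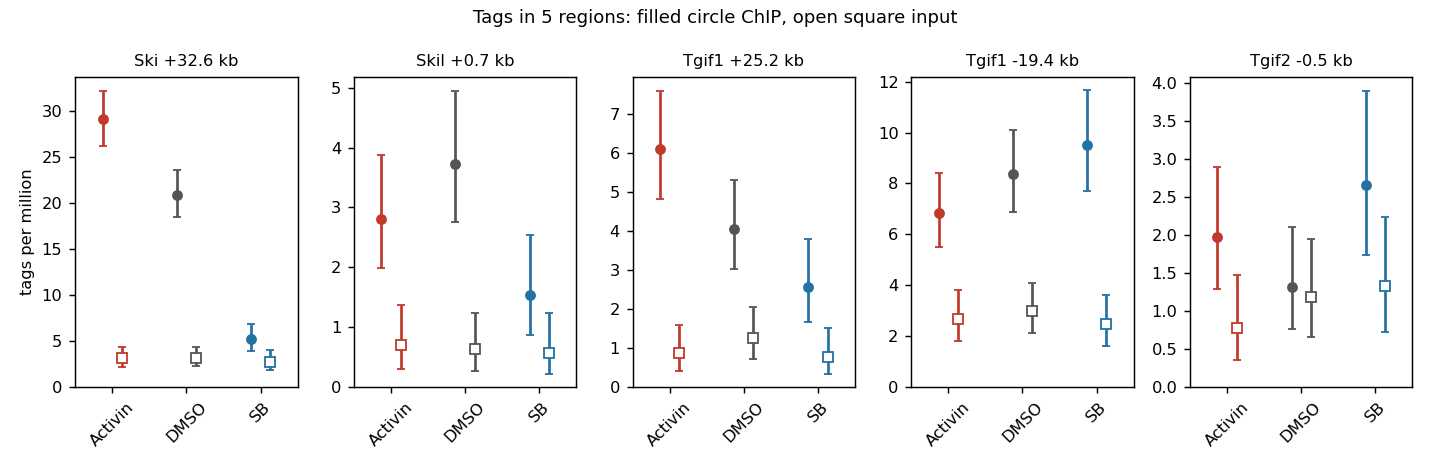
RPM (tags scaled to 1000000 per library) of each library in 5 regions, named by gene and distance from the first start site, with ChIP as filled circles, input as open squares and exact Poisson 95% intervals as bars. At Ski +32.6 kb the ChIP levels were 29.1 with Activin, 20.9 with DMSO and 5.23 with SB, and the y axes differ between panels.

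ChIP stood above its own input at the Ski region in each treatment, by 9.32 times in Activin (6.61 to 13.5), 6.64 times in DMSO (4.75 to 9.50) and 1.90 times in SB (1.18 to 3.10). The lower limit in SB was thus above 1, so tags above input were still detected after SB. The tags came from both strands, with 174 plus and 208 minus tags for Activin, 142 and 127 for DMSO and 16 and 35 for SB, and no position and strand held more than 4. With 1 tag kept per position and strand, 274, 185 and 43 tags were left. Fragments piled up to 241 with Activin, 165 with DMSO and 22 with SB. The highest points of DMSO and SB lay 13 and 57 bp from that of Activin, and the widths at 50% of the height were 251, 259 and 262 bp. In tags within 200 bp of the highest pileup, the region ranked 63 with Activin, 83 with DMSO and 676 with SB among all 12258. The 90 bp amplicon that the study designed for PCR at Ski covers the highest pileup, and its middle lies 41 bp away. On average 16.0, 11.7 and 2.02 fragments per 1000000 tags covered the amplicon with Activin, DMSO and SB.

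**Figure D2:**
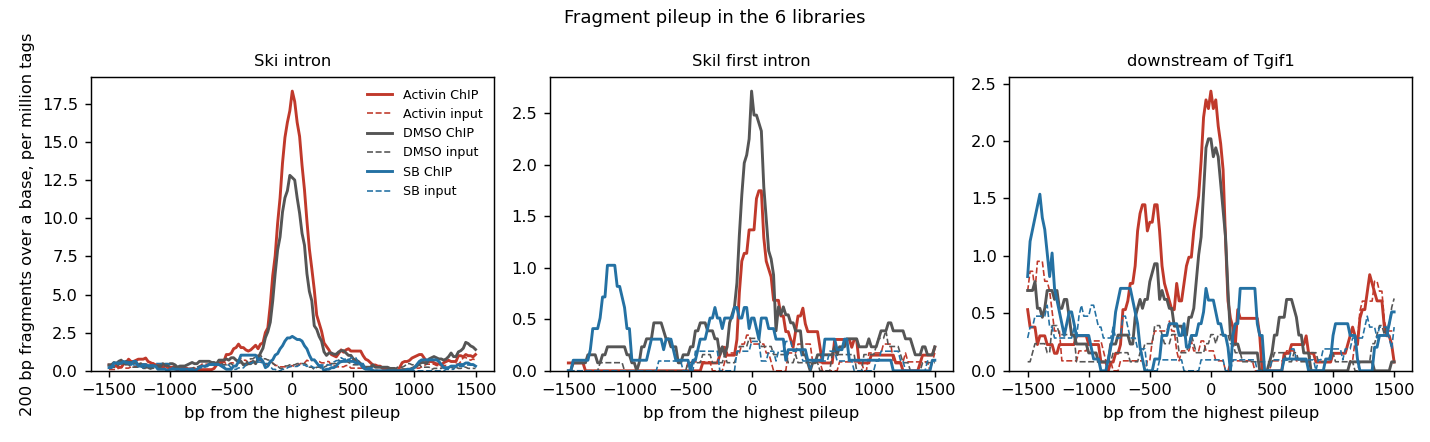
Coverage of each base by 200 bp fragments, scaled to 1000000 tags, against the distance in bp from the highest pileup, for the 3 regions whose sequence is given, with ChIP as solid and input as dashed lines. The Ski peak reached 18.3 with Activin, 12.8 with DMSO and 2.26 with SB, the Skil peak 1.90 in Activin and 2.72 in DMSO, and the peak beside Tgif1 2.43 and 2.17.

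The other 10 Ski regions were lower, with 16 to 109 tags with Activin, 20 to 105 with DMSO and 3 to 74 with SB. Beside the tall one, the region 30.4 kb from the start site (Activin and DMSO lists) had 56 tags with Activin, 40 with DMSO and 19 with SB. Activin was 2.19 times SB there (1.28 to 3.90, adjusted p of 0.0143, exact binomial test). Its inputs held 20, 20 and 9 tags, and ChIP over input was close across treatments, at 2.459, 1.973 and 2.275. Divided by the input ratio, Activin was 1.094 times SB. The region at 34.0 kb (Activin list) had 64, 70 and 31 tags, and SB was 0.585 times DMSO (0.370 to 0.904, adjusted p of 0.0496). Further in, the region at 18.9 kb (DMSO list) had 16, 23 and 3 tags, and SB was 0.172 times DMSO (0.0331 to 0.570, adjusted p of 0.0115). The region at 59.2 kb (Activin list), with 65, 54 and 23 tags, was also called higher in Activin than in SB. Over all 11 Ski regions, 10 had a higher RPM in Activin than in SB, and 3 of these were called. The median ratio was 1.69 at Ski and 0.868 over all regions of the series. These 3 and the 3 regions called lower in SB than in DMSO, at 18.9, 32.6 and 34.0 kb, lie in the body of the gene. Apart from the tall region, each of these calls was lost under some of the 6 alternatives, at 34.0 kb under 4 and at the others under 2.

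The 5′ end of Ski is given apart, and no test compared it with the body of the gene. The region 0.8 kb from the start site, over a coding exon and in the SB list alone, had 80 tags with Activin, 53 with DMSO and 61 with SB. The region at 2.2 kb (Activin and SB lists) had 109, 68 and 74. At both, Activin and SB were close to each other, with ratios of 0.973 (0.689 to 1.38) and 1.09 (0.806 to 1.49), and DMSO was lowest. Scaled by windows of the same GC content, these ratios were 1.315 and 1.183. All 11 Ski regions then had Activin above SB. Activin was called higher than DMSO at 2.2 kb, by 1.57 times (1.15 to 2.16, adjusted p of 0.0210, exact binomial test), and at the 3′ end, 66.0 kb from the start site and in the Activin list alone, by 2.01 times (1.15 to 3.62, adjusted p of 0.0432, exact binomial test). The call at 66.0 kb was lost under 6 of 6 alternatives and that at 2.2 kb under 3.

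Skil (chr3:30993980-31021499, plus strand) carried its main region at chr3:30994447-30995238, in the first intron, 0.7 kb from the start site. It was in the Activin and DMSO lists, with 29 and 36 listed tags, and not in the SB list. It held 2.81 RPM with Activin, 3.73 with DMSO and 1.54 with SB, against 0.693, 0.630 and 0.571 in the inputs. DMSO was highest and SB lowest. SB was 0.412 times DMSO and called lower (0.214 to 0.749, adjusted p of 0.0165, exact binomial test). Activin was 0.755 times DMSO (0.478 to 1.18) and 1.83 times SB (0.981 to 3.59), and neither was called, with adjusted p of 0.377 and 0.131 by the exact binomial test. With 15 to 48 tags in each library, the interval for Activin against DMSO includes 1.

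ChIP over input at the Skil region was 4.06 in Activin (1.86 to 10.1), 5.92 in DMSO (2.78 to 14.5) and 2.69 in SB (0.988 to 8.48). In SB the interval includes 1, so tags above input were not detectable at this depth. The 78 bp amplicon of the study lies on the highest pileup itself. It had 1.38, 2.44 and 0.470 fragments per 1000000 tags on average with Activin, DMSO and SB. By PCR on unamplified ChIP DNA, the study reports binding graded with the signal in introns of both Ski and SnoN. The Skil counts here, with DMSO above Activin, do not follow that order, though Activin and DMSO were not told apart by the test. The call for SB against DMSO was lost when 1 tag was kept per position and strand, with adjusted p of 0.0706 by the exact binomial test. It was also lost when the ratio was divided by that of the inputs, with adjusted p of 0.454 by a normal test on the log ratio.

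Each of the other 4 Skil regions was in 1 list only and had 24 tags or fewer in every library. The region at 6.6 kb (Activin list) had 16 tags with Activin, 2 with DMSO and 5 with SB, and Activin was 7.84 times DMSO (1.84 to 70.3). The region at 8.9 kb (DMSO list) had 5, 18 and 3, and Activin was 0.272 times DMSO (0.0790 to 0.760) and SB 0.220 times DMSO (0.0415 to 0.754). Past the 3′ end, the region at 28.6 kb (DMSO list) had 24, 16 and 2, and Activin was 8.91 times SB (2.21 to 77.7). These ratios and SB against DMSO at 28.6 kb, 0.165 (0.0184 to 0.702), were called, with adjusted p from 0.00230 to 0.0361 by the exact binomial test. The regions at 6.6 and 8.9 kb were listed for the library in which they were high. At 28.6 kb the 24 Activin tags lay on 11 distinct positions, and the Activin to SB ratio was not called under 2 of 6 alternatives. The calls for SB against DMSO were lost under 5 of 6 at 8.9 kb and 4 of 6 at 28.6 kb, and those for Activin against DMSO under 1 of 6 at 6.6 kb and 4 of 6 at 8.9 kb. The region at 2.5 kb (DMSO list), over a coding exon, had 12, 14 and 8 tags and no call.

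The Ski and Skil regions were set against each other by Fisher's exact test on their tags, a comparison added after the values were seen. The Activin to DMSO ratio was 1.84 times larger at Ski than at Skil (1.14 to 2.99, adjusted p of 0.0152 over 3 tests), and the Activin to SB ratio 3.03 times larger (1.44 to 6.13, adjusted p of 0.00606). For SB against DMSO the ratio at Ski was 0.608 times that at Skil (0.306 to 1.26, adjusted p of 0.145), and a difference was not detected. With 1 tag kept per position and strand, the adjusted p for Activin against DMSO was 0.0522. Counted over all tags, the Ski region thus had more tags in Activin, relative to DMSO and to SB, than the Skil region did.

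Regions in the same lists were used as background, but list membership itself shapes the ratios. Regions in all 3 lists needed a peak in SB, and those in the Activin and DMSO lists had none there. Neither set was matched for peak height, so the places of the Ski and Skil regions cannot be compared with each other. Of the 1126 regions in all 3 lists, the median Activin to SB ratio was 0.792, and 3, the Ski region among them, had a ratio as high as its 5.56. For SB against DMSO the median was 1.07, and 4 had a ratio as low as 0.250. Of the 703 regions in the Activin and DMSO lists, the median SB to DMSO ratio was 0.607, and 212, or 30.2%, were as low as the Skil region. The Activin to SB ratio at Skil, 1.83, lay near the median of 1.70 for these regions. For Activin against DMSO, 23 of the 1126, or 2.04%, were as high as the Ski region, and 101 of the 703, or 14.4%, were as low as the Skil region, where the median was 1.05. The Ski region thus stood at the far end of its list in Activin against SB and SB against DMSO, and the Skil region near the middle of its own in Activin against SB and toward the low side in the comparisons with DMSO. Of all 12258 regions, 39 were called both higher in Activin than in DMSO and lower in SB than in DMSO, and none of the 29 was among them.

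**Figure D3:**
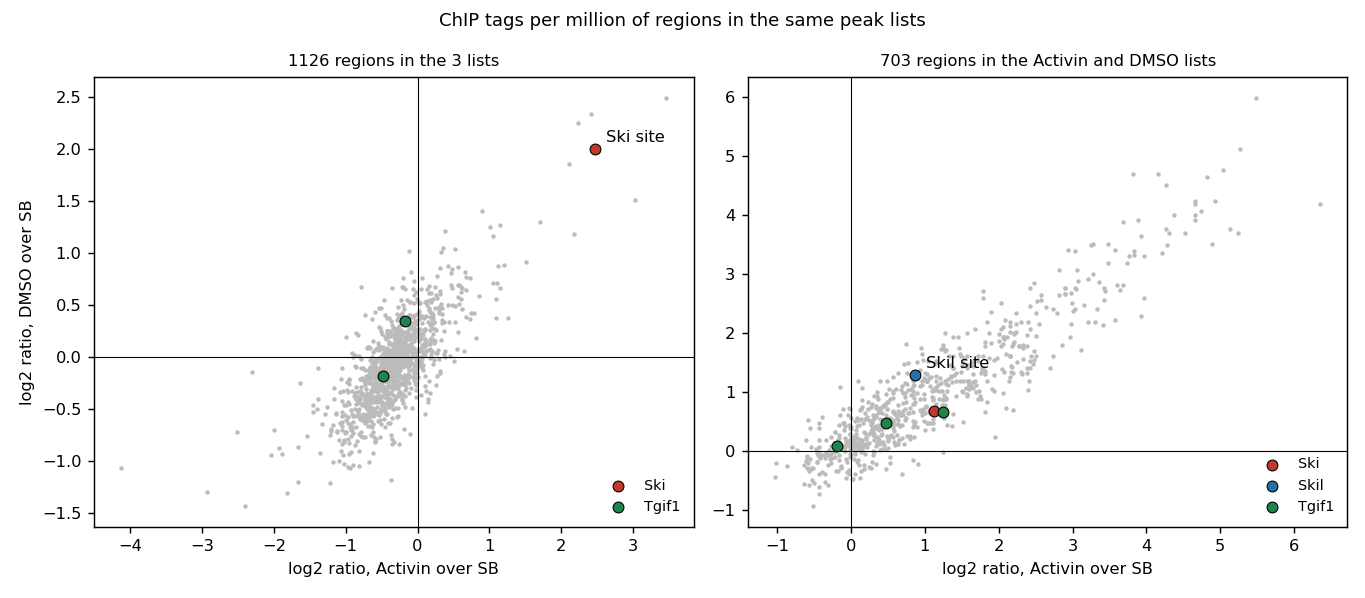
Each point is a region, with the log2 ratio of RPM of Activin over SB on the x axis and of DMSO over SB on the y axis, for the 1126 regions in all 3 lists on the left and the 703 in the Activin and DMSO lists on the right, where a count of 0 was drawn as 0.5 tags. The Ski region lies at the upper right of its panel, and the Skil region among the bulk of the points.

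By the distance between log2 levels of the 3 ChIP libraries within 200 bp of the highest pileup, the regions most like the Ski region lay near Pgpep1, Lefty1 and Slc38a7. The Lefty1 region, near a gene for a secreted inhibitor of Nodal, had 607 tags with Activin, 446 with DMSO and 20 with SB, against 305, 219 and 30 at Ski. The Pgpep1 region had 245, 221 and 67, and the Slc38a7 region 142, 103 and 21. The regions most like the Skil region lay in Dock2 and near Rasd2 and Camk2n1, with distances of 0.114 to 0.343 against 1.18 to 1.62 for the neighbours of Ski. At Skil the tags were 27, 40 and 10, and in Dock2 26, 43 and 10. The inputs there differed, with 5, 6 and 3 tags at Skil and 21, 26 and 21 in Dock2, and the inputs were no part of the distance.

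Tgif1 (chr17:71193545-71202886, minus strand) had the most regions, with 9 in the Activin list, 8 in the DMSO list and 2 in the SB list. They spread over the gene and both flanks, and no region stood out as at Ski. The region with the largest ChIP over input in Activin lies between genes at chr17:71177266-71178491, 25.2 kb from the start site. It was in the Activin and DMSO lists and had 80 tags with Activin, 52 with DMSO and 25 with SB, which is 6.08, 4.04 and 2.56 RPM, against 10, 16 and 8 tags in the inputs. Activin was highest and SB lowest, as at Ski. Activin was 2.38 times SB and called (1.499 to 3.89, adjusted p of 0.00107, exact binomial test), while SB at 0.635 times DMSO (0.377 to 1.04) and Activin at 1.51 times DMSO (1.05 to 2.18, adjusted p of 0.0738 by the exact binomial test) were not.

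The other Tgif1 call for Activin against SB was at 17.9 kb (Activin list), with 33, 17 and 8 tags and a ratio of 3.06 (1.39 to 7.67, adjusted p of 0.0152, exact binomial test). At 15.7 kb (Activin list), with 34, 13 and 13 tags, Activin was 2.56 times DMSO (1.32 to 5.29, adjusted p of 0.0201, exact binomial test). Both lie downstream of the gene, and the calls were lost under 2 of 6 alternatives at 17.9 kb, 3 of 6 at 15.7 kb and 1 of 6 at 25.2 kb. Within the gene, the region at 3.8 kb, in all 3 lists, had 56, 79 and 47 tags, and that at 2.4 kb (Activin and DMSO lists) 57, 67 and 48. Activin was 0.884 (0.589 to 1.33) and 0.881 (0.590 to 1.32) times SB there. Upstream, 19.4 kb from the start site, a region in all 3 lists had 90, 108 and 93 tags, and SB was highest, at 9.53 RPM against 6.85 in Activin. Its Activin to SB ratio of 0.718 (0.531 to 0.970) was not called, with adjusted p of 0.0923 by the exact binomial test. With all tags of each region counted, the called Tgif1 regions lay downstream of the gene, and none over it or upstream. Within 200 bp of its highest pileup, the upstream region had 31, 22 and 43 tags with Activin, DMSO and SB. In that setting 1 region of the 4 genes, not identified here, was called lower in Activin than in SB. No test compared these places, and the downstream region at 23.8 kb (DMSO list) had an Activin to SB ratio of 0.495 (0.217 to 1.09).

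Tgif2 (chr2:156665813-156681306, plus strand) had 1 region, at chr2:156664782-156665635, 0.5 kb upstream of the start site and in the Activin list alone. It had 26 tags with Activin, 17 with DMSO and 26 with SB, which is 1.98, 1.32 and 2.67 RPM, and 9, 15 and 14 in the inputs. ChIP over input was 2.54 in Activin (1.15 to 6.15), 1.12 in DMSO (0.525 to 2.40) and 2.00 in SB (1.01 to 4.15). SB was highest and DMSO lowest. No comparison was called, and Activin was 0.742 times SB (0.414 to 1.33). The region also covers the start of Gm14230, listed as a processed transcript on the other strand.

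**Figure D4:**
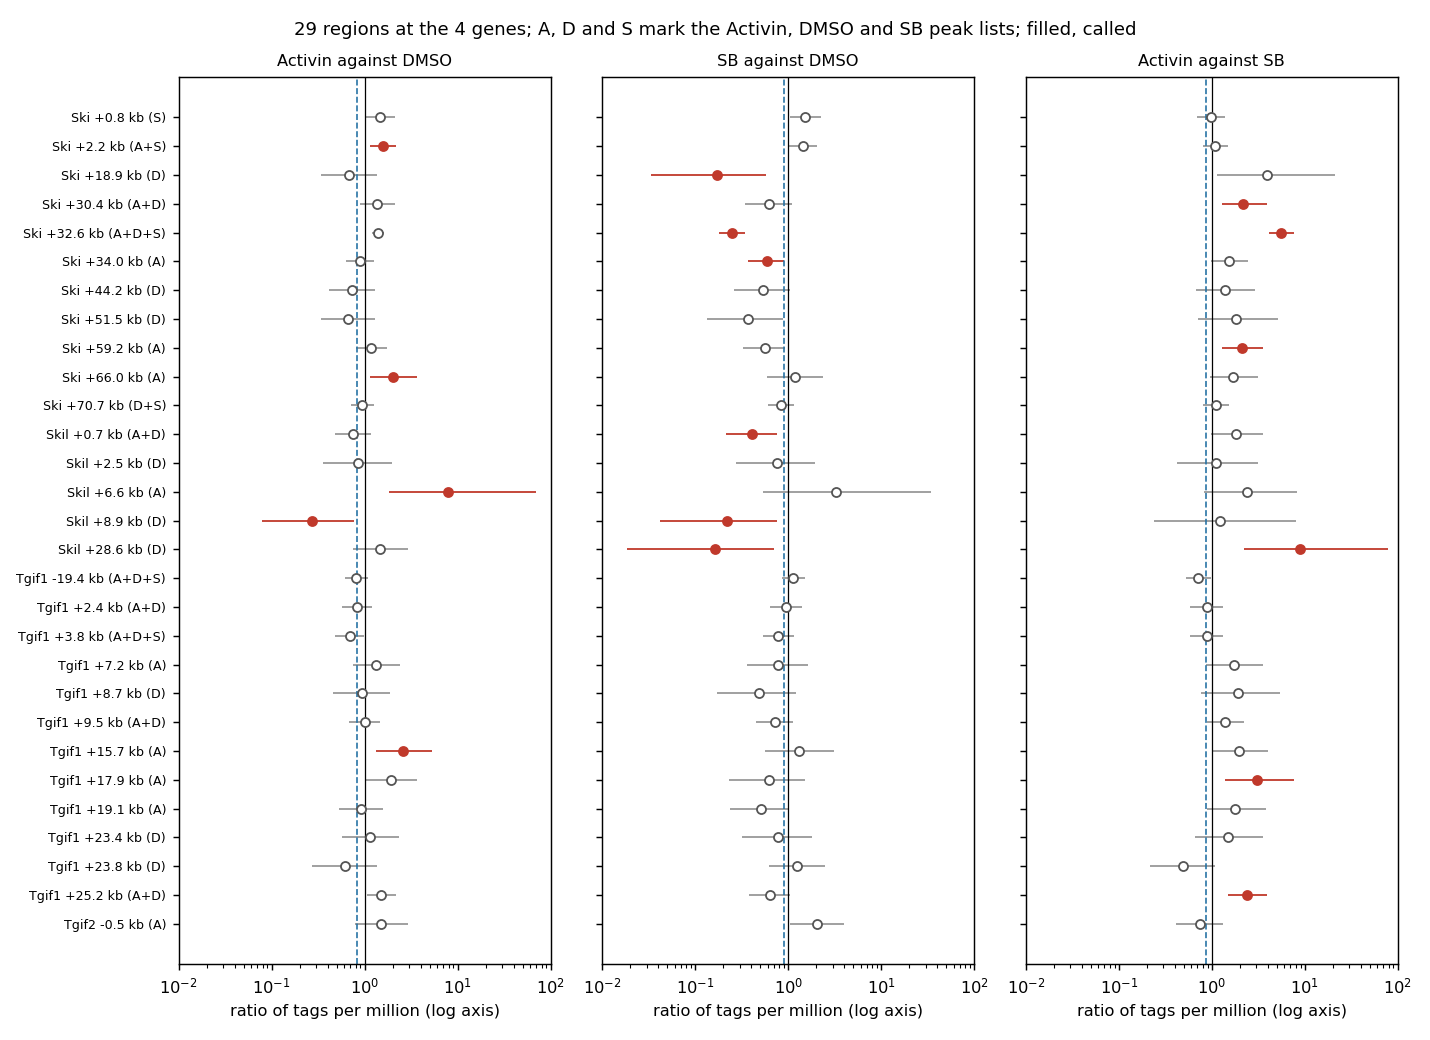
Ratio of RPM with its 95% interval, on a log axis, for the 29 regions in the 3 comparisons, named by gene and distance from the first start site, with A, D and S for the lists that hold the region and the dashed line at the median of all 12258 regions. Filled points are called, and the narrow interval at Ski +32.6 kb contrasts with the wide ones at Skil.

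Across the 4 genes, Activin against SB gave 6 regions called higher of 29 and none lower, where 9.07% of all regions were higher and 16.1% lower, or 25.2% either way. The 6 were 3 at Ski, 1 at Skil and 2 at Tgif1. Counted within 200 bp of the highest pileup, 5 were higher and 1 lower. The median ratio was 1.69 over the 29 regions and 0.868 over all 12258. SB against DMSO gave 6 lower and none higher, 3 at Ski and 3 at Skil, though 1 higher and 5 lower when tags within 200 bp of the highest pileup or 5′ ends were counted, where 12.7% of all regions were lower and 10.6% higher, or 23.3% either way, with median ratios of 0.718 and 0.893. Activin against DMSO gave 4 higher and 1 lower, where 7.13% were higher and 17.6% lower, or 24.8% either way, with medians of 0.997 and 0.820. The share called in either direction was thus below or near that of all regions. Scaled by windows of the same GC content, SB against DMSO gave 733 regions higher and 1393 lower in place of 1302 and 1551 over the whole series, while the 4 genes gave 5 lower and none higher.

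Bins of 200 bp were tested without the peak lists. Activin ChIP was called above its input in 7 bins of the 4 windows, DMSO in 8 and SB in 2, by a one-sided exact binomial test with adjusted p under 0.05 and at least 2-fold. Over the genome 0.464%, 0.754% and 0.973% of bins with at least 8 tags were called. The bin at chr4:154564001-154564200, under the tall Ski region, had 227 ChIP tags and 3 input tags with Activin, 163 and 5 with DMSO and 22 and 3 with SB, which is 66.5, 32.2 and 7.90 times input. It was called in every treatment, though in SB not with bins of 400 bp or at adjusted p under 0.001. At Skil, 1 bin was called, in DMSO only, with 33 ChIP and 4 input tags, 8.14 times input, over the main region, while 1 Skil bin was also called in Activin with bins of 400 bp or with at least 15 tags. At Tgif1, the bin 25.2 kb from the start site had 31 ChIP and 2 input tags in Activin and 25 and 3 in DMSO, and a bin in the upstream region 29 and 1 in SB. A bin 3.6 kb upstream of Tgif1, outside every region, had 19 and 2 in DMSO, and a bin in Sla2, past the end of Tgif2, 14 and 0 in Activin.

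**Figure D5:**
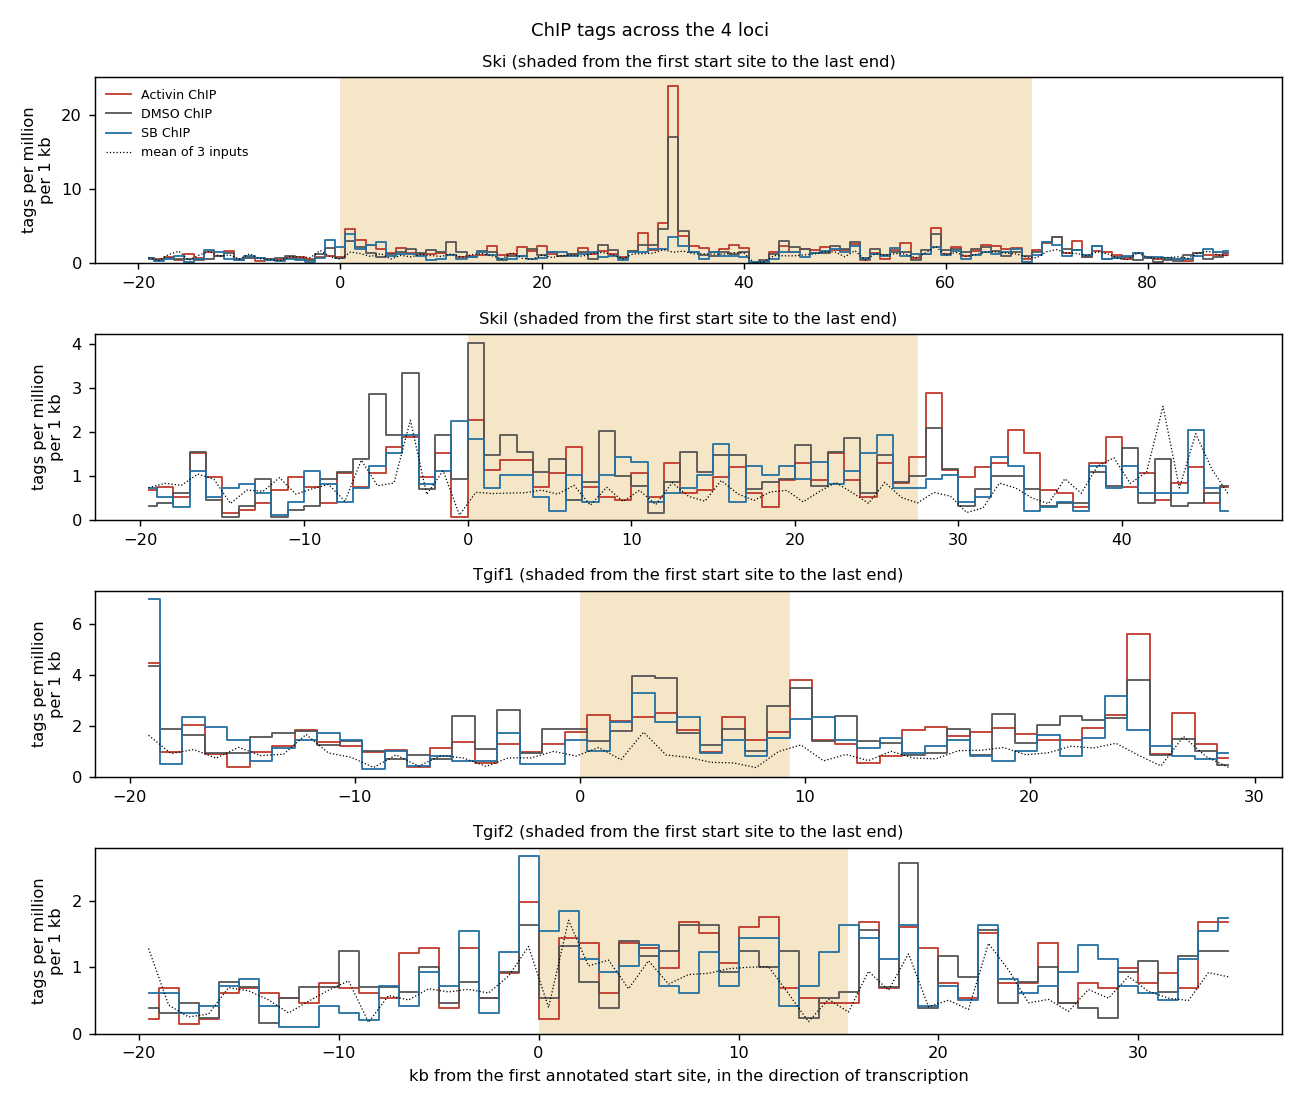
ChIP RPM in steps of 1 kb across the 4 windows, against the distance in kb from the first annotated start site in the direction of transcription, with the mean of the 3 inputs dotted and the gene shaded. A single step in the Ski intron reached far above the rest of that window, and the y axes differ between genes.

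The start sites of the 4 genes were counted apart, within 500 bp of each annotated start of a coding transcript. At Ski, 3 start sites within 72 bp of each other had 9 to 18 tags with Activin, 9 to 13 with DMSO and 20 to 25 with SB, with no call. At Tgif1, 8 start sites had 27 to 35 tags with Activin, 22 to 55 with DMSO and 12 to 29 with SB, with no call. At Tgif2, 3 start sites had 7 to 12, 6 to 16 and 12 to 14, again with no call. At Skil the 4 start sites that lie within 67 bp of each other shared nearly all their tags and count as 1 place. There the library counts at the first start site were 1 with Activin, 16 with DMSO and 19 with SB, against 1, 3 and 3 in the inputs. Activin was 0.0612 times DMSO (0.00146 to 0.394, adjusted p of 0.0438, exact binomial test) and 0.0391 times SB (0.00094 to 0.246, adjusted p of 0.000162, exact binomial test).

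The window at the first Skil start site is 78.9% GC, and the libraries differed in how many tags such sequence gave. Over all 45971 start sites the median Activin to SB ratio was 0.742, with 0.35% of start sites called for Activin against DMSO, 3.75% for SB against DMSO and 8.71% for Activin against SB. With scaling by windows of the same GC content, none of the start sites of the 4 genes was called. The part of GC content in the other results was not tested beyond that scaling, under which the Ski region had ratios of 6.01 for Activin against SB and 0.222 for SB against DMSO.

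Outside the regions, the Ski window held 1.24 RPM per kb with Activin, 1.17 with DMSO and 1.00 with SB, against 1.00 to 1.02 in the inputs. Activin was 1.24 times SB there (1.14 to 1.35), a far smaller difference than at the tall region. Over the genome, 12243600 of 13148559 Activin ChIP tags and 8688062 of 9757735 SB ChIP tags lay outside regions. That share is larger with Activin, so scaling by total tags raises the Activin to SB ratio outside regions in every window. The Skil window outside its regions held 0.925, 0.986 and 0.879, and Activin was 1.05 times SB (0.943 to 1.17). Inside, per kb, the tall Ski region held 18.4, 13.2 and 3.31 RPM and the Skil region 3.55, 4.71 and 1.94. The Ski region in SB thus lay near the Skil region in Activin on this scale, but only before the inputs were considered. The inputs held 1.74 RPM per kb at Ski in SB and 0.875 at Skil in Activin. ChIP over input was 1.90 and 4.06 there.

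Beyond the windows, the nearest region outside that of Tgif1 lies 17.2 kb further on, near Dlgap1, with 37, 27 and 10 tags in Activin, DMSO and SB. Outside Skil the nearest is 17.4 kb away, near Prkci, with 15, 30 and 3, outside Ski 38.0 kb away, near Morn1, with 47, 20 and 14, and outside Tgif2 92.8 kb away, near Dlgap4, with 16, 15 and 22.

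Other genes of the pathway were taken from lists, and named where Activin against SB was called. The other Ski family members, Skor1, Skor2, Dach1 and Dach2, had 1 region among them and no call. The partners in corepressor complexes had 31 regions at 4 of 10 genes, with 1 called higher in Activin than in SB and 3 lower. The higher one was at Ncor1, which encodes N-CoR, with 15 tags with Activin, 7 with DMSO and 1 with SB, and the lower ones were at Ctbp2, with 4, 10 and 19 tags at the most changed. Other nuclear inhibitors of Smad2 and Smad3 had 5 regions at 3 of 8 genes, with 1 higher, at Mecom (17, 2 and 2 tags), and 1 lower, at Tob1 (51, 47 and 80). The ubiquitin ligases and their activators that act on Ski and SnoN had 13 regions at all 4 genes and 2 called lower, both at Fzr1, which activates the anaphase-promoting complex. Other TALE homeobox genes had 10 regions at 5 of 8 genes and 3 called lower, at Meis2, Pbx2 and Pbx3. Scaled by windows of the same GC content, the ratio moved from 0.156 to 0.412 at Ctbp2, from 0.473 to 0.716 at Tob1 and from 0.371 to 0.672 at Pbx3. It moved less at Fzr1, from 0.519 to 0.595, and at Pbx2, from 0.327 to 0.376. Ncor1, Mecom and Meis2 kept their direction under that scaling, and no ratio is given for them because 1 library held only 1 or 2 tags.

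The feedback inhibitors outside the nucleus, Pmepa1, Lefty1, Lefty2 and Smurf1, had 14 regions, with 8 called higher in Activin than in SB and 3 lower, and a median ratio of 2.63. A Lefty2 region had 748 tags with Activin, 480 with DMSO and 28 with SB. It was 19.8 times higher in Activin than in SB (adjusted p of 3.9e-137, exact binomial test). Of 3 Pmepa1 regions 1 was called higher, at a ratio of 2.95 with 139, 97 and 35 tags, and 1 lower. At Lefty1 4 of 4 regions were called higher in Activin than in SB. In 1 of them SB had 0 tags and Activin 10, which is at least 2.47-fold against a floor of 3 tags in that library. Of 3 Smurf1 regions 2 were called lower in Activin than in SB, with 14, 14 and 25 tags at the more changed. The Ski region, at 5.56, lay between the Lefty2 and Pmepa1 values, a description across genes with no test.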

How the data were processed

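The deposited files hold 35 bp tags with position and strand, aligned to mm9 per the labels, and 3 peak lists that the authors made with MACS, 1 for each treatment, with a position and a tag count per peak. For the aligner and the MACS version no source used here gives a name or number. Peak extents were not used as listed but rebuilt from the tags, which gave the listed count within 10% for 88.5% (SB) to 92.0% (Activin) of the peaks, and peaks that overlapped by at least 1 bp were joined into 12258 regions. Tags were placed at the middle of a 200 bp fragment and counted with repeats, which were 19.9 to 24.6% of ChIP and 5.64 to 6.94% of input tags. Libraries were compared by exact binomial tests given their total tags, with Benjamini-Hochberg adjustment over all regions, bins of at least 8 tags or start sites. Division by the input ratio instead used a normal test on the log ratio. For it 0.5 was added to each of the 4 counts, and the counting errors of all 4 were summed. These tests of regions, bins and start sites were also run on simulated counts, and the other steps were not. Alternatives changed repeats, scaling, input, window, placing and thresholds. All 4 genes, all their regions and the 3 nearest regions to the Ski and Skil regions are named, and from the lists up to 3 genes called in each direction for Activin against SB. The members and lists were chosen with earlier results of these data known, and Fisher's exact test of Ski against Skil and the comparison of inputs were added after the data were seen. Genes and start sites are those of GENCODE on the same assembly. Python 3.11.15, numpy 2.4.6, pandas 2.3.3 and scipy 1.17.1 were used.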

Additional observations from a re-analysis of the deposited data

How the results depend on the processing

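No paired analysis was possible because each treatment has 1 ChIP and 1 input library, and for the same reason no library could be left out. At the tall Ski region SB against DMSO and Activin against SB kept their direction and their call under the 6 alternatives run on their ratios and at adjusted p under 0.001. Activin against DMSO there kept its direction and stayed under 1.5-fold. Its adjusted p of 0.00138 by the exact binomial test does not reach 0.001. Divided by the input ratio, adjusted p was 0.436 by the normal test on the log ratio. With no fold limit 5 regions of the 4 genes were higher in place of 4. At the Skil region the ratio of SB to DMSO kept its direction but was not called with 1 tag per position and strand (0.437) or divided by the input ratio (0.457); the cause was not tested.

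Of regions at the 4 genes, Activin against DMSO called 5, and 1 with 1 tag per position and strand, 0 divided by the input ratio, 2 within 200 bp of the highest pileup, 3 by the 5' end of the tag and 0 at adjusted p under 0.001. SB against DMSO called 6, and 1 in each of the first and second of these settings and at 0.001. Within 200 bp of the highest pileup and by the 5' end of the tag, SB against DMSO called 1 region higher and 5 lower. Activin against SB called 6, and 3 with 1 tag per position and strand, 1 divided by the input ratio and 1 at 0.001, and within 200 bp of the highest pileup 5 higher and 1 lower. Over all regions, 1 tag per position and strand left 1099, 993 and 2041 calls of 3036, 2853 and 3084, and division by the input ratio 5, 60 and 102. Fewer tags enter with 1 tag per position and strand, and the stricter threshold removes calls by construction. Division by the input ratio used the normal test on the log ratio, whose error also includes that of the input counts. How much of the loss each of these differences accounts for was not tested.

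Start sites of the 4 genes called for Activin against DMSO went from 3 to 0 under each alternative run, and for Activin against SB from 4 to 0 with GC-matched scaling and within 1000 bp. SB against DMSO went from 0 to 3 within 1000 bp. The cause was not tested. Bins called in Activin went from 7 to 19 with at least 15 tags and to 4 at 0.001. In DMSO they went from 8 to 4 with at least 5 tags, 15 with at least 15 and 3 at 0.001, and in SB from 2 to 1 with 400 bp bins and 1 at 0.001. A higher minimum leaves fewer bins to adjust for.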
